A study of Mus musculus with 6 samples.

Results

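A set of 6 genes of the granulocyte colony-stimulating factor (G-CSF) receptor pathway are described here across the stages of neutrophil formation: Csf3r, Jak2, Stat3, Socs3, Cish and Pim1. They were chosen by name, as the receptor and its JAK-STAT and feedback genes, and all 6 were found among the 23016 genes of the deposited count table. G-CSF is the cytokine that drives the making of neutrophils in bone marrow and their release into blood. Its receptor, the product of Csf3r, has no enzyme activity of its own and works through the bound kinase JAK2, which phosphorylates the transcription factor STAT3. Socs3 and Cish encode inhibitors that are made in response to cytokines and dampen the signal, and Pim1 encodes a survival-promoting kinase whose gene is a target of STAT proteins. JAK2, STAT3 and the feedback genes are shared with many other cytokine receptors, the interleukin-6 receptor among them, so their levels are not a readout of G-CSF alone.

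The study profiled single cells of wild-type mice with 3′ droplet sequencing in 6 libraries: aged and young bone marrow taken 24 h after the middle cerebral artery was occluded (a model of stroke), aged and young bone marrow at steady state, and aged and young blood at steady state. Marrow was enriched for Gr1+ cells (granulocytes and monocytes) and for c-kit+ cells (stem and progenitor cells), and blood for CD11b+ Ly6G+ and CD11b+ Ly6G- cells, so the share of a stage in a library follows the enrichment. The strain, the ages and the number of animals behind a library are not given in the labels used here. Each combination of age and condition is 1 library, so no error here covers variation between animals. The fits left between 1 and 3 residual degrees of freedom. The error of a fitted difference therefore rests mostly on a spread shared over genes. It can be smaller than the gene's own variation between conditions or ages. Pim1 for age in progenitors, for example, had an SE of 0.12 but ran from 0.20 to 0.82 with 1 library left out. Intervals on single libraries cover counting error only. No sham-operated group is among the samples, and the steady-state marrow is the comparison for stroke.

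The stroke libraries stood apart from the others. Deposited cells numbered 3017 in aged and 2858 in young marrow after stroke, 6389 and 8213 in aged and young steady-state marrow, and 5342 and 2236 in aged and young blood. The highest mitochondrial share of any cell was 9.95% and 9.90% in the aged and young stroke libraries and between 4.89% and 4.99% in the other 4. In the stroke libraries 30.1% of aged and 44.5% of young kept cells lay in clusters that could not be named, against 13.3% and 14.1% at steady state. Between 5 and 21 cell barcodes were shared by any pair of libraries. The 5 stages were named from marker genes: stem and multipotent cells, granulocyte-monocyte progenitors, dividing pre-neutrophils, immature neutrophils and mature neutrophils. Each name means only that a cluster resembles the class, and steady-state marrow had no cluster with the mature name. Of the markers, Ltf, a secondary granule gene, stood at 8489 and 9055 CPM (a gene's unique molecular identifiers, or UMIs, relative to all UMIs of that class in that library) in immature neutrophils of aged and young stroke marrow and at 12510 and 12280 in those of aged and young steady-state marrow. Cxcr2, a chemokine receptor of mature neutrophils, stood at 1469 and 1447 CPM in mature cells of aged and young stroke marrow and at 1784 and 1915 in those of aged and young blood.

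The GENCODE spans of the genes in GRCm38 are chr4:126024550-126044440 (Csf3r), chr19:29251828-29313080 (Jak2), chr11:100885098-100939540 (Stat3), chr11:117966079-117970047 (Socs3), chr9:107296026-107302784 (Cish) and chr17:29490753-29496112 (Pim1). Stat3 and Socs3 are on the minus strand and the others on the plus strand. Stat3 overlaps Stat5a on the opposite strand, and Cish and Pim1 overlap the unnamed opposite-strand genes Gm17041 and Gm26885. The sources used here do not say whether counting used the strand, so reads from these overlaps cannot be told apart. The 2 feedback genes are the members whose RefSeq promoters hold the palindromic 9-letter STAT motif TTCNNNGAA, and those promoters are printed to show where it lies. Each runs from 250 bases before to 50 bases after the start that the RefSeq table uses, with the motif in capitals. That start differs from the outer end of the GENCODE span above, and both windows lie within the spans.
Socs3 (GRCm38.p6, chr11:117969317-117969616, minus strand): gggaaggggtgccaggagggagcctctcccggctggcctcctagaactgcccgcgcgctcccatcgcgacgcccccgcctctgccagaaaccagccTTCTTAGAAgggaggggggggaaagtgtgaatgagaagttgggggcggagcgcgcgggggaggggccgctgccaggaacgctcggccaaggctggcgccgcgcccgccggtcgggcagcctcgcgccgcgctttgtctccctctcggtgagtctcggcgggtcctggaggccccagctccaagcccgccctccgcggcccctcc
Cish (GRCm38.p6, chr9:107296409-107296708, plus strand): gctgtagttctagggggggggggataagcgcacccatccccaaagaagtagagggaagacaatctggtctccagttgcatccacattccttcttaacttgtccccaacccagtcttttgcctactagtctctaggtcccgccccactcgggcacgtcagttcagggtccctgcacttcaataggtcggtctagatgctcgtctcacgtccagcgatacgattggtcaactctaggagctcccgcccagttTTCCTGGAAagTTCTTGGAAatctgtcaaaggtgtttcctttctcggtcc
The Socs3 window has 1 match, 154 bases before that start. The Cish window has 2, at the start used and 11 bases after it. A match was found in 2726 of all 32851 mouse promoters of this length, or 8.3%, and 2 or more in 150, or 0.457%. The windows of Csf3r, Jak2, Stat3 and Pim1 held none. A match describes these letters only, and no binding was measured.

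Csf3r, the receptor gene, was lowest in progenitors and highest in mature neutrophils. In stem and multipotent cells its level was 29.1 and 35.0 CPM in aged and young stroke marrow, against 52.0 and 54.3 in aged and young steady-state marrow. In granulocyte-monocyte progenitors it was 23.8 and 17.7 after stroke (aged, young), against 44.1 and 51.4 at steady state. In dividing pre-neutrophils it was 60.1 and 77.9 after stroke, against 82.4 and 68.0 at steady state. The 2 progenitor stages overlapped each other, and every dividing value lay above all of theirs. In immature neutrophils the aged and young levels were 116 and 129 after stroke, against 169 and 155 at steady state. In mature neutrophils they were 612 and 1195 in stroke marrow and 3799 and 4617 in blood. From dividing cells on, no stage overlapped the next, and mature cells of steady-state blood lay above those of stroke marrow in both ages. All mature marrow cells came from stroke libraries and all blood cells from steady state. Tissue, stroke and enrichment cannot be told apart in that difference. The fitted log2 difference was 1.93 ± 0.16 (SE, adjusted p = 5.81e-07) for dividing cells against progenitors, 1.25 ± 0.08 (2.54e-08) for immature against dividing and 2.54 ± 0.15 (4.61e-12) for mature against immature neutrophils, the last within the stroke libraries. Csf3r UMIs were found in 53.8% and 45.9% of immature neutrophils of aged and young steady-state marrow (median 6278 and 5072 UMIs per cell). Among erythroid cells, which lack the receptor, the shares were 5.79% and 9.26% (median 10520 and 8938 UMIs). In blood, Csf3r was found in 100% of aged and 99.8% of young mature neutrophils (median 4024 and 3940 UMIs). The background was higher there: B-lineage cells, which also lack the receptor, showed it in 29.8% of aged and 50% of young cells, at 119 and 352 CPM (median 5588 and 5476 UMIs).

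**Figure D1:**
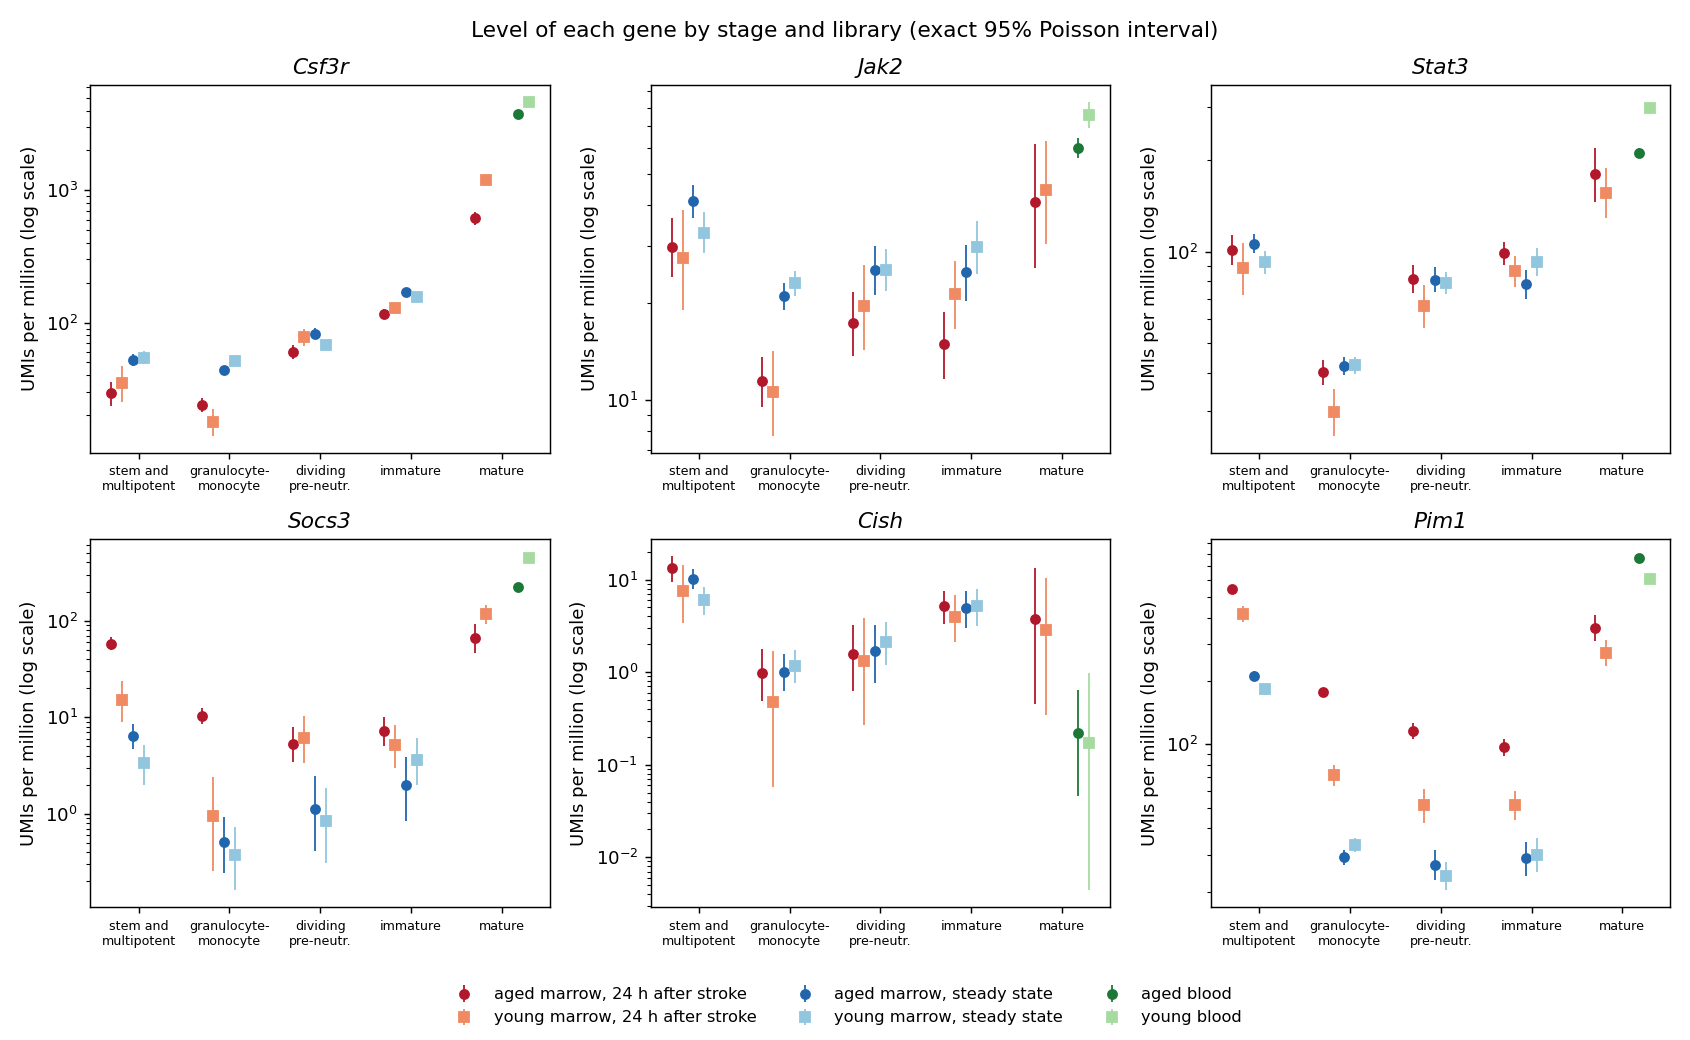
Level of the 6 genes at each stage in each library, in CPM on a log axis, with circles for aged, squares for young and bars for the exact 95% Poisson interval of the count. Csf3r lies between 17.7 and 54.3 in the 2 progenitor stages and between 612 and 4617 in mature neutrophils, whereas Pim1 in stroke marrow is high at both ends of the series and lower between. Socs3 is highest in mature neutrophils.

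Jak2, the receptor-bound kinase, and Stat3, the transcription factor it activates, were higher in stem and multipotent cells than in granulocyte-monocyte progenitors in all 4 marrow libraries, and higher again in mature neutrophils than in immature ones. Jak2 in stem and multipotent cells was 29.8 and 27.5 CPM in aged and young stroke marrow and 41.2 and 32.9 at steady state, and in granulocyte-monocyte progenitors 11.4 and 10.6 after stroke and 20.9 and 22.9 at steady state. In dividing cells it was 17.3 and 19.6 after stroke and 25.2 and 25.2 at steady state, and in immature neutrophils 14.9 and 21.3 after stroke and 24.8 and 29.8 at steady state. In mature neutrophils it reached 40.8 and 44.6 in stroke marrow and 60.1 and 76.1 in blood (aged, young). The dividing and immature ranges of Jak2 overlapped, and both mature ranges lay above them. Stat3 in stem and multipotent cells was 102 and 88.4 after stroke and 106 and 92.4 at steady state, and in granulocyte-monocyte progenitors 40.2 and 29.7 after stroke and 42.0 and 42.3 at steady state. In dividing cells it was 81.4 and 66.1 after stroke and 80.9 and 79.0 at steady state, in immature neutrophils 98.8 and 86.4 after stroke and 78.2 and 92.6 at steady state. Mature neutrophils had 180 and 157 in stroke marrow and 212 and 298 in blood. Stat3 in granulocyte-monocyte progenitors lay below every other stage, and its dividing and immature ranges overlapped. Against progenitors as a whole, dividing cells were higher in Jak2 by 1.01 ± 0.11 (adjusted p = 6.85e-06) and in Stat3 by 1.46 ± 0.11 (1.496e-07). For immature against dividing cells the differences were 0.30 ± 0.12 (0.0454) and 0.46 ± 0.09 (0.000506), and for mature against immature cells 0.95 ± 0.29 (0.0137) and 0.58 ± 0.16 (0.00627). With library totals as the scaling, the Jak2 difference between dividing cells and progenitors was 0.10 and its call was lost (adjusted p = 0.464). The Jak2 call between immature and dividing cells was lost under each other setting except the coarser clustering, and without either steady-state library or the young stroke library. With DESeq2's test the mature calls of both genes were lost (adjusted p = 0.253 and 0.178).

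Socs3, which encodes the inhibitor that binds the G-CSF receptor, was nearly undetected in the middle of the series and most abundant at its end. In stem and multipotent cells it was 57.9 and 15 CPM in aged and young stroke marrow and 6.40 and 3.33 at steady state, and in granulocyte-monocyte progenitors 10.4 and 0.943 after stroke and 0.507 and 0.374 at steady state. In dividing pre-neutrophils 24 UMIs in aged and 14 in young stroke marrow, and 6 and 6 at steady state, gave 5.32 and 6.09 CPM after stroke and 1.13 and 0.850 at steady state. In immature neutrophils it was 7.22 and 5.17 after stroke and 1.97 and 3.62 at steady state. In mature neutrophils it was 66.8 and 116.5 in stroke marrow and 223 and 449 in blood (aged, young). All 4 mature values lay above all 8 of the dividing and immature stages. Steady-state blood lay above stroke marrow, where tissue, stroke and enrichment cannot be told apart. The fitted difference was 3.53 ± 0.30 (adjusted p = 2.50e-09) for mature against immature cells and 0.88 ± 0.34 (0.0369) for immature against dividing cells. For dividing cells against progenitors it was -0.09 ± 0.39 (0.840). The 0.88 lost its call with DESeq2's test (0.0844), with library totals (0.61, adjusted p = 0.143) and without the aged steady-state, the young steady-state or the aged stroke library.

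Cish, which encodes a related inhibitor induced by STAT5, followed another course. It was highest in stem and multipotent cells, at 13.3 and 7.50 CPM in aged and young stroke marrow and 10.2 and 5.95 at steady state. In granulocyte-monocyte progenitors it was 0.988 and 0.472 after stroke and 1.01 and 1.17 at steady state, and in dividing cells 1.55 and 1.31 after stroke and 1.69 and 2.12 at steady state. In immature neutrophils it was 5.16 and 3.96 after stroke and 4.92 and 5.18 at steady state, above the dividing cells in all 4 libraries by a fitted 1.75 ± 0.29 (adjusted p = 0.000173), while dividing cells differed from progenitors by 0.23 ± 0.34 (0.566). Mature neutrophils of blood held 3 aged and 1 young UMI of Cish in all, or 0.221 and 0.174 CPM, and those of stroke marrow 2 each. The mature step was below the filter on low counts and was not tested.

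Pim1, the kinase gene induced by STATs, was high at both ends. Stem and multipotent cells had 544 and 416 CPM in aged and young stroke marrow and 212 and 182 at steady state. Granulocyte-monocyte progenitors had 177 and 71.2 after stroke and 29.2 and 33.3 at steady state, dividing cells 115 and 51.3 after stroke and 26.9 and 23.8 at steady state, and immature neutrophils 96.7 and 51.4 after stroke and 28.8 and 30.02 at steady state. Mature neutrophils had 358 and 272 in stroke marrow and 768 and 608 in blood. In stroke marrow the stem and mature values of Pim1 lay above all 3 stages between them. The fitted difference was 1.84 ± 0.15 (adjusted p = 1.12e-09) for mature against immature cells, 0.27 ± 0.10 (0.0344) for immature against dividing cells and -0.51 ± 0.12 (0.00160) for dividing cells against progenitors. The 0.27 lost its call with DESeq2's test, with no filter, with library totals (0.0056) and without either steady-state library or the young stroke library. The last depends on which progenitors are meant: it was -1.70 against stem and multipotent cells and 0.39 (adjusted p = 0.0197) against granulocyte-monocyte progenitors.

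In counts, 3 of the 6 genes were called higher and 1 lower in dividing cells against progenitors, where 34.9% of 12842 genes were called higher and 40.1% lower (75.0% in all). Immature against dividing cells gave 6 higher of 6, where 31.6% of 10003 genes were higher and 31.2% lower (62.8%). Mature against immature cells gave 5 higher of 5 tested, where 16.4% of 6990 genes were higher and 15.7% lower (32.1%). The median log2 difference of the members was 0.62, 0.67 and 1.84 at these steps. Each background includes genes that were used to define the stages. All these differences are relative to a scaling on the bulk of genes (TMM). With library totals in its place the median of all genes moved to -1.02, -0.24 and 0.25 at the 3 steps, and the member differences moved with it: Jak2 and Stat3 in dividing cells against progenitors became 0.10 (adjusted p = 0.464) and 0.57, and Stat3 in immature against dividing cells 0.20 (0.0547).

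**Figure D2:**
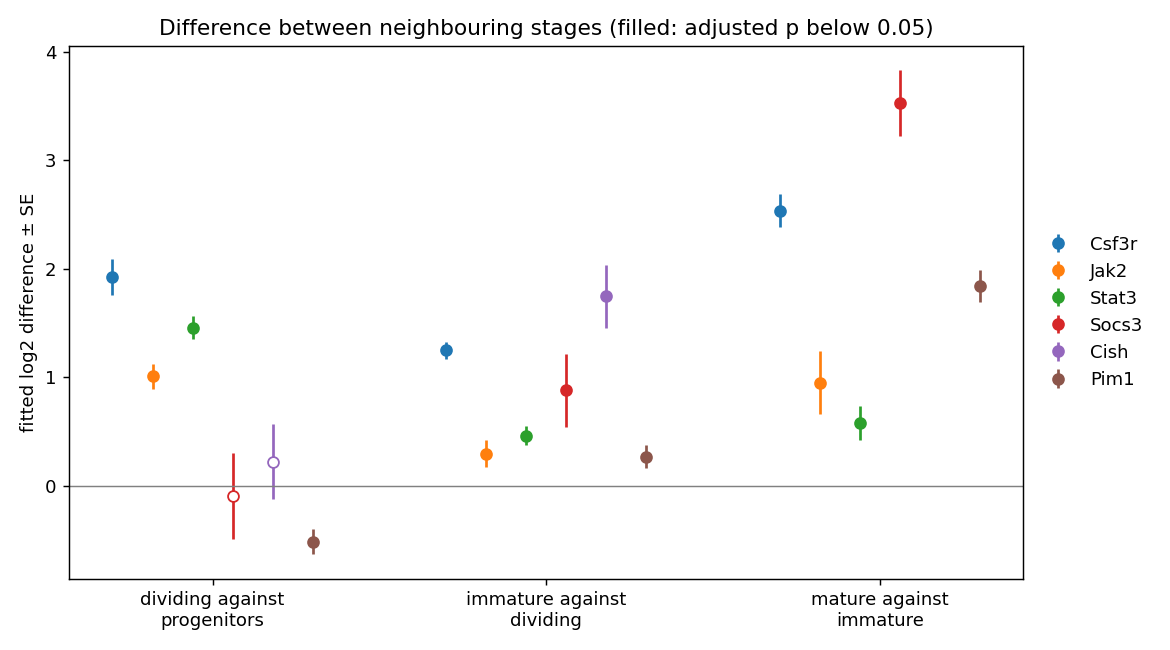
Fitted log2 difference of each gene between neighbouring stages, with bars for the SE and filled points for an adjusted p below 0.05. Csf3r, Jak2 and Stat3 are above 0 at all 3 steps, Pim1 is below 0 at the first, and Socs3 and Csf3r reach 3.53 and 2.54 at the last.

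Set among all named classes of marrow, Csf3r was higher in mature neutrophils (612 to 1195 CPM), immature neutrophils (116 to 169) and dividing pre-neutrophils (60.1 to 82.4) than in the other classes on average. The mature and immature ranges overlapped no other class. Within a condition, the dividing range overlapped classical monocytes at steady state (57.0 to 69.3) and B-lineage cells after stroke (3.31 to 64.1). Over both conditions together, basophils and mast cells (13.3 to 61.6) overlapped it as well. In blood, mature neutrophils at 3799 to 4617 stood above erythroid cells at 736, the next class. Socs3 was highest in mature neutrophils of marrow (66.8 to 116.5), where the B lineage after stroke overlapped them with a range of 23.2 to 113, and lowest in erythroid cells (0 to 0.502). In blood its mature range, 223 to 449, stood above non-classical monocytes at 151. Pim1 was highest in stem and multipotent cells of marrow. After stroke they had 416 to 544 CPM, apart from mature neutrophils (272 to 358), which were next. At steady state they had 182.4 to 211.9, which overlapped T cells at 160.3 to 194.5. In blood Pim1 was highest in mature neutrophils (608 to 768), above NK cells at 331 to 385. Stat3 in stroke marrow was highest in mature neutrophils (157 to 180), apart from NK cells, at 107 or less, and from all other classes there. At steady state, with no mature neutrophils, it was highest in T cells (126 to 158). Jak2 in marrow was highest in basophils and mast cells (107 to 212) and conventional dendritic cells (105 to 135), which overlapped at steady state and lay apart after stroke. Cish had no class apart from the rest: after stroke T cells, NK cells and stem and multipotent cells overlapped at the top, and at steady state stem and multipotent cells (5.95 to 10.2) overlapped B-lineage cells (6.55 to 8.95).

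After stroke the feedback gene Socs3 and the target gene Pim1 rose in progenitors, dividing pre-neutrophils and immature neutrophils, while Csf3r and Jak2 fell in progenitors. The part of background in the fall of Csf3r was not tested. Socs3 in progenitors (both progenitor stages summed) was 20.7 CPM in aged and 4.04 in young stroke marrow (295 and 22 UMIs), against 2.03 and 0.997 in aged and young steady-state marrow (54 and 27 UMIs). Pim1 in progenitors was 257 and 147 after stroke, against 76.4 and 64.8 at steady state. Both genes were higher after stroke in each age, and their ranges did not overlap between conditions. The fitted log2 difference for Socs3 was 3.31 ± 0.28 (adjusted p = 2.12e-08) in progenitors, 2.75 ± 0.52 (0.000215) in dividing cells and 1.49 ± 0.42 (0.0122) in immature neutrophils. For Pim1 it was 1.82 ± 0.12 (7.29e-10), 1.92 ± 0.17 (1.03e-09) and 1.62 ± 0.18 (9.46e-07) at the same stages. Markers of the stages and of other cells differed between the same progenitors. Mki67 in stem and multipotent cells was 25.2 and 40.01 CPM in aged and young stroke marrow, against 399 and 419 at steady state, and Mpo in granulocyte-monocyte progenitors was 2732 and 2776, against 6972 and 7196. In progenitors the summed classical monocyte list of 13 genes was 1017 and 1488 after stroke, against 2291 and 2805 at steady state. The B-lineage list of 12 was 68.4 and 108, against 273 and 267, and the NK list of 11 was 331 and 286, against 709.9 and 767. Nkg7 is in both the NK list and the granulocyte-monocyte progenitor list, so the NK sum is not of other cells alone. In aged and young progenitors after stroke, 5 and 6 B-lineage and 1 and 3 NK markers were at 0, against none at steady state. Counts at 0 also depend on depth: these sums held 14221659 and 5439894 UMIs after stroke, against 26606709 and 27078636 at steady state. Cd79a, which defines B cells, was at 0.355 CPM or less in both progenitor stages. The part of these markers in the differences was not tested. Leaving out 1 library moved Socs3 between 2.31 and 3.75 in progenitors and between 0.81 and 2.24 in immature neutrophils, and Pim1 between 1.49 and 2.15, 1.31 and 2.40, and 1.08 and 2.13 at the 3 stages. The immature Socs3 call was lost with DESeq2's test (adjusted p = 0.458). These fits called 22.6% of 15136 genes higher and 23.2% lower in progenitors (45.8% in all), 15% and 10.4% of 9694 in dividing cells (25.4%), and 13.6% and 10.4% of 8730 in immature neutrophils (24.0%). Members called were 2 higher and 2 lower of 6, 2 higher of 5 and 3 higher of 6.

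The share of cells with Socs3 was also higher after stroke. Socs3 UMIs were found in 47.4% of aged and 19.4% of young stem and multipotent cells after stroke (median 13160 and 15880 UMIs per cell), against 4.82% and 1.87% at steady state (7024 and 6097). With every cell thinned to 2000 UMIs the shares were 12.4% and 2.99% after stroke and 1.65% and 0.468% at steady state. Erythroid cells, as a background, had a Socs3 UMI in 0.690% of aged cells and in none of 80 young cells after stroke, and in 0.223% and 0.556% at steady state. The 10 cells with most Socs3 held 29.1% of its UMIs in aged stem and multipotent cells after stroke and 36.2% in aged granulocyte-monocyte progenitors. By counting, the log2 ratio of stroke to steady state was 3.18 (95% interval 2.70 to 3.69) in aged and 2.17 (1.16 to 3.18) in young stem and multipotent cells, and 4.36 (3.43 to 5.46) and 1.33 (-0.85 to 3.23) in granulocyte-monocyte progenitors. It was 2.24 (0.91 to 3.82) and 2.84 (1.37 to 4.51) in dividing cells, and 1.88 (0.74 to 3.20) and 0.51 (-0.59 to 1.65) in immature neutrophils. The young intervals of granulocyte-monocyte progenitors and immature neutrophils include 0, and all others lie above it. For Pim1 the aged and young ratios were 1.36 and 1.19 in stem and multipotent cells, 2.60 and 1.10 in granulocyte-monocyte progenitors, 2.10 and 1.11 in dividing cells and 1.75 and 0.78 in immature neutrophils, every interval above 0. The granulocyte-monocyte progenitors after stroke were 2 clusters. The larger, with Mpo at 3066 and 2982, had Socs3 at 7.54 and 0.782 and Pim1 at 166 and 61.6 in aged and young cells. The smaller, of 49 aged and 11 young cells, had Mpo at 897 and 828, Kit at 128 and 108 (36.2 and 26.9 in the larger) and Hlf at 50.1 and 116 (4.25 and 2.61), and had Socs3 at 26.2 and 2.46 (1 UMI in young cells, against 3 in the larger cluster) and Pim1 at 238 and 163. Within immature neutrophils, 2 large clusters of each condition were set side by side. The conditions were clustered separately and these clusters were paired by their Csf3r level alone, so equal maturity within a pair is not shown. In the one with less Csf3r (78.8 and 72.2 after stroke, 76.9 and 72.6 at steady state), Pim1 was 75.3 and 26.0 in aged and young cells after stroke, against 8.87 and 10.3 at steady state. In the one with more Csf3r (157 and 192 after stroke, 234 and 223 at steady state), Pim1 was 121 and 79.8, against 40.7 and 44.1. Steady-state marrow had 1 more immature cluster, of 15 aged and 10 young cells, with Csf3r at 258 and 583 and Pim1 at 101 and 216 (9 and 10 UMIs).

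The 2 genes were also higher outside the neutrophil series. Socs3 was above its steady-state level in 12 of 12 marrow classes of aged mice (11 intervals above 0, median log2 ratio 3.86) and in 10 of 10 of young mice that had a UMI in both conditions (6 intervals, median 1.92). In the remaining young class, erythroid cells, Socs3 had 0 UMIs after stroke against 3 at steady state, so no ratio is given. Pim1 was higher in 11 of 12 aged classes (10 intervals above 0, median 1.45) and 9 of 11 young ones (9 intervals, median 0.78), with T cells lower in young mice. Csf3r ran the other way, with the interval of its ratio below 0 in 10 of 11 aged classes (median -1.54) and 9 of 10 young ones (median -1.59), among them classes where its UMIs are at background. A list of immediate-early and dissociation-stress genes moved as well: 8 higher and 3 lower of 20 tested in progenitors, 10 and 1 of 16 in dividing cells and 8 and 2 of 14 in immature neutrophils. Its summed level in stem and multipotent cells was 1265 and 1319 CPM in aged and young stroke marrow, against 1618 and 1589 at steady state. In granulocyte-monocyte progenitors the sum was 1382 and 1332 after stroke, against 1475 and 1367. In dividing cells it was 995 and 1022, against 889 and 890, and in immature neutrophils 1089 and 1049, against 991 and 1037. The part of this list, of cell depth and of the libraries' preparation in the stroke differences was not tested.

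**Figure D3:**
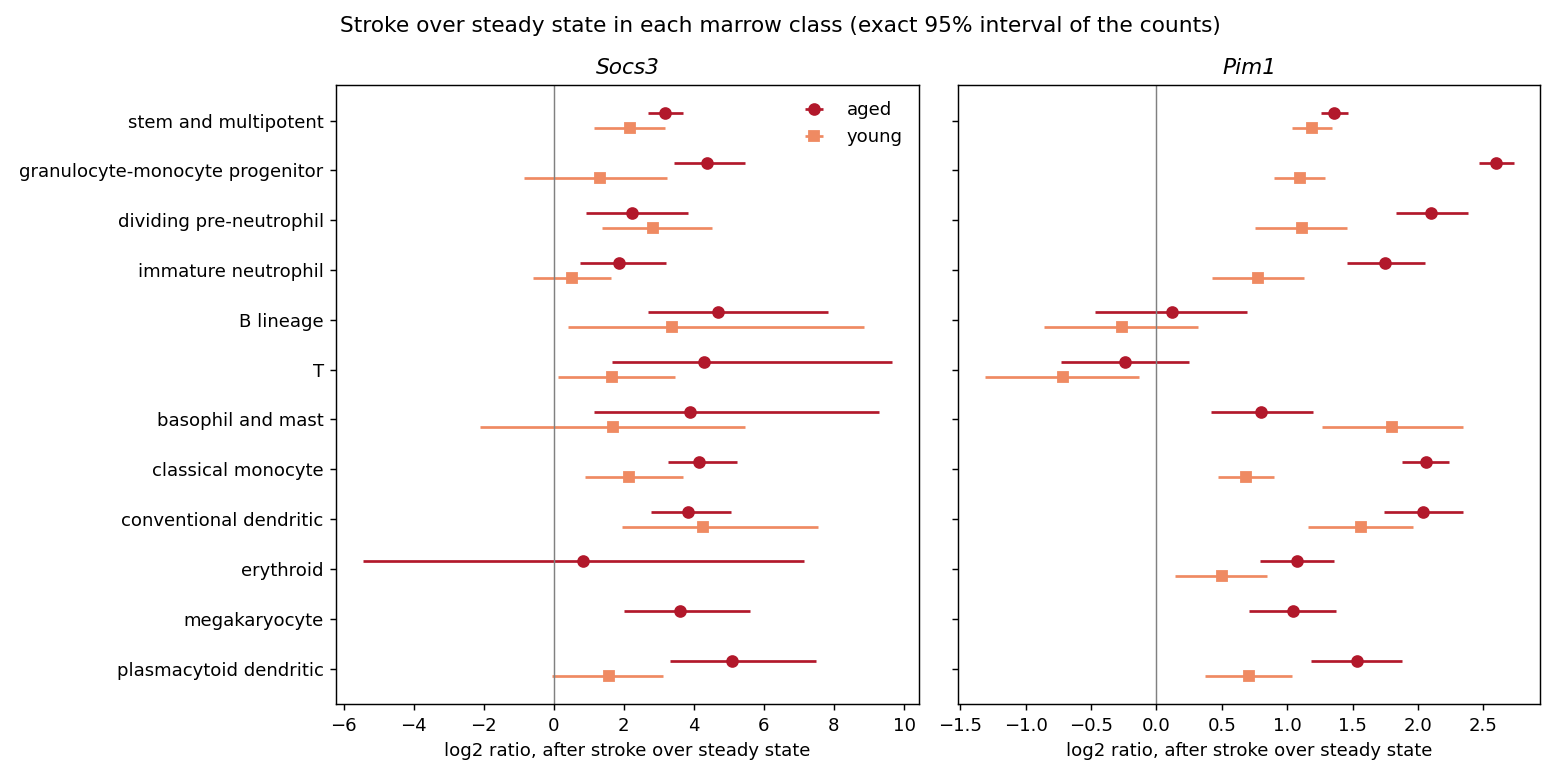
Log2 ratio of marrow after stroke to steady-state marrow for Socs3 and Pim1 in each named class, for aged (circles) and young (squares) mice, with the exact 95% interval of the counts. Socs3 lies right of 0 in all classes drawn, which leave out young erythroid cells (0 UMIs after stroke, 3 at steady state), and Pim1 in 11 of 12 aged and 9 of 11 young ones.

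Of the signalling genes themselves, Csf3r fell in progenitors by a fitted log2 difference of -0.70 ± 0.12 (adjusted p = 0.000143). It was 25.0 and 21.5 CPM in aged and young progenitors after stroke, against 46.2 and 52.0 at steady state, and the groups did not overlap. In stem and multipotent cells alone the difference was -0.34 (adjusted p = 0.0927). Csf3r differed by 0.10 (0.624) in dividing cells and -0.10 (0.583) in immature neutrophils, which passed no test. Erythroid cells, which lack the receptor, had Csf3r at 4.77 to 12.39 CPM at steady state and 0 to 1.64 after stroke. B-lineage cells, which also lack it, had 28.36 to 38.02 and 3.31 to 64.1. Cxcr2 in granulocyte-monocyte progenitors was 10.79 and 13.39 CPM in aged and young steady-state marrow, against 2.43 and 0.943 after stroke. The part of background in the progenitor fall of Csf3r was not tested. Jak2 fell in progenitors by 0.43 (SE 0.13, adjusted p = 0.0111), a call lost in stem and multipotent cells alone, where the value was 0.022, with DESeq2's test (0.265) and at the coarser clustering (0.0626). Stat3 rose in immature neutrophils by 0.44 ± 0.13 (0.0176), where the 4 libraries gave overlapping levels, and this call was lost with DESeq2's size factors (0.0560), DESeq2's test (0.391) and library totals (0.12, adjusted p = 0.481). In progenitors and dividing cells Stat3 differed by 0.13 (0.322) and 0.14 (0.437). Cish differed by 0.40 (0.297) in progenitors and 0.19 (0.770) in immature neutrophils. Scaling by library totals moved the median of all genes to -0.40, -0.27 and -0.34 in the 3 stroke fits. Under it Csf3r of immature neutrophils was -0.41 (0.00781), and Jak2 was -0.61 (0.0150) in immature neutrophils and -0.46 (0.0410) in dividing cells.

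At steady state the feedback genes and Pim1 were unevenly spread over the stem and multipotent cells. One of the 3 clusters, led by the stem cell genes Hlf and Angpt1 with Car2, Nupr1 and Ifitm1, held 274 aged and 36 young cells. It showed little of the division gene Mki67, at 43.8 and 42.5 CPM in aged and young cells, and the stem cell receptor gene Procr at 209 and 170, against 18.4 and 24.2 in the largest of the 3. Pim1 there was 485 and 432, against 165 and 207 in the cluster of 404 aged and 609 young cells and 96.9 and 116 in the dividing cluster of 172 and 210 (Mki67 at 1124 and 1092). Cish there was 31.97 and 56.6, against 4.97 and 5.18 and 3.48 and 3.68. Socs3 was 20.9 in aged cells (30 UMIs) and 0 UMIs in the 36 young cells, which allows up to 26.1 CPM, against 3.22 and 3.81 and 1.49 and 2.63. Pim1 and Cish were thus higher in the Hlf-led cluster of both ages, by counts that were not tested between clusters. After stroke the stem and multipotent cells formed a single cluster, with Procr at 50.8 and 32.5. The Hlf-led cluster was then left out of steady-state marrow, while the stroke cluster was kept whole. The stroke differences in progenitors became 3.86 for Socs3, 2.09 for Pim1, -0.73 for Csf3r and 1.03 for Cish (adjusted p = 0.0177 for Cish). The removal takes cells high in Pim1 and Cish, and in aged mice Socs3, from 1 condition only. It raises the differences of these genes by itself, so their new values cannot show a stroke effect apart from the removal.

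Between aged and young mice, Socs3 and Pim1 rose in aged progenitors, and no other difference of a member passed the test. Socs3 was higher in aged progenitors by 1.76 ± 0.29 (SE, adjusted p = 0.00214) and Pim1 by 0.51 ± 0.12 (0.0339), so 2 of 6 members were called, where 1.08% of 15136 genes were called higher and 0.159% lower (1.24% in all). Both differences were larger after stroke in these libraries, which was not tested. The aged-to-young log2 ratio of Socs3 was 1.95 (95% interval 1.25 to 2.74) after stroke and 0.95 (0.14 to 1.80) at steady state in stem and multipotent cells. In granulocyte-monocyte progenitors it was 3.47 (2.07 to 5.37) after stroke, from 116 aged and 4 young UMIs, and 0.44 at steady state, from 10 and 8. For Pim1 these ratios were 0.39 and 0.22 in stem and multipotent cells, and 1.31 (1.14 to 1.49) and -0.19 (-0.35 to -0.03) in granulocyte-monocyte progenitors. The steady-state stem and multipotent ratios include the Hlf-led cluster of 274 aged and 36 young cells, where both genes were higher in aged cells. In the other clusters of that class at steady state, both genes were lower in aged than in young cells, for Socs3 by few UMIs. The part of this make-up in the ratios was not tested. Leaving out either stroke library gave 0.98 for Socs3, and leaving out either steady-state library gave 2.37. The Pim1 difference ran from 0.20 to 0.82 in the same way. Its call held under 2 of 9 other settings, no filter and library totals, and was lost with DESeq2's size factors or test, with doublets kept, at the coarser clustering, in either progenitor stage alone and without the Hlf-led cluster (adjusted p between 0.0618 and 0.9999). The Socs3 call held under 5 of 9. It was lost without the Hlf-led cluster, at 1.44 (adjusted p = 0.0980), with DESeq2's test (0.0667), at the coarser clustering (0.103) and in granulocyte-monocyte progenitors alone (0.415).

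In later stages the age differences of Pim1 were seen in the stroke libraries. Pim1 of aged over young dividing cells was 1.17 (95% interval 0.88 to 1.47) after stroke and 0.17 at steady state, and of immature neutrophils 0.91 (0.65 to 1.17) and -0.06. The fitted differences were 0.74 ± 0.17 (adjusted p = 0.0766) and 0.55 (0.617), in fits that called 0.206% of 9694 genes in dividing cells (20, 0.175% higher and 0.0309% lower, with 482 at an unadjusted p below 0.05) and 0.0802% of 8730 in immature cells (7, 0.0687% higher and 0.0115% lower, with 482), none of them a member. The dividing difference passed with DESeq2's size factors (0.0229), with no filter (0.000133), with doublets kept (0.000605) and at the coarser clustering (0.000224). The aged rise after stroke was not limited to these stages. Pim1 was higher in 11 of 13 marrow classes (10 intervals above 0 and 1 below, median log2 ratio 0.65). Socs3 was higher in 9 of 12 (6 intervals above 0 and 1 below, median 1.24). At steady state Pim1 was higher in 10 of 12 classes (1 interval above 0 and 1 below, median 0.14) and Socs3 in 6 of 12 (1 interval above 0, median 0.085). Stat3 after stroke was higher in aged cells in 13 of 13 marrow classes, at a median log2 ratio of 0.30, with 4 intervals above 0. At steady state it was higher in 7 of 12 classes (median 0.029, 1 interval above 0 and 2 below).

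In mature neutrophils the receptor and its inhibitor were lower in aged mice, both in stroke marrow and in blood, and Pim1 was higher. The aged-to-young log2 ratio of Csf3r was -0.97 (95% interval -1.16 to -0.78) in stroke marrow and -0.28 (-0.30 to -0.26) in blood. That of Socs3 was -0.80 (-1.41 to -0.22) in stroke marrow and -1.01 (-1.09 to -0.93) in blood, and that of Pim1 0.40 (0.10 to 0.69) and 0.34 (0.28 to 0.39). Stat3 was 0.20 in stroke marrow and -0.49 (-0.58 to -0.40) in blood, and Jak2 of blood -0.34 (-0.51 to -0.17). In blood, counts in aged mice were also lower in classes other than neutrophils. Over the 4 classes compared, mature neutrophils among them, Csf3r was lower in 4 (4 intervals below 0, median -0.93) and Socs3 in 4 (2 intervals, median -0.66). Stat3 was lower in 4 (3 intervals, median -0.37), while Pim1 was higher in 3 of 4 (2 intervals above 0 and 1 below, median 0.28). The Csf3r tally includes background: B-lineage cells, which lack the receptor, had 119 CPM in aged and 352 in young blood. Mature neutrophils were 62.3% of aged and 75.9% of young kept blood cells. The part of background in the other classes, and of this shift in the neutrophil values, was not tested. In blood, 52.8% of aged and 71.6% of young mature neutrophils held a Socs3 UMI, and 34.5% and 54.3% at 2000 UMIs per cell. Blood B-lineage cells held one in 10.1% and 15.9%. In the fit over immature and mature neutrophils of all 6 libraries, 3 of 10325 genes (0.0291%) were called for age, 707 were below an unadjusted p of 0.05, and no member was called. This fit sums both stages. After stroke these were 92 mature and 393 immature cells in aged and 136 and 265 in young marrow. The fit does not separate that mix from a difference within a stage. The fitted values were -0.93 ± 0.14 for Socs3 (adjusted p = 0.0785), -0.32 for Csf3r (0.744), -0.34 for Jak2 (0.667) and 0.32 for Pim1 (0.692). Socs3 passed with DESeq2's test (0.0242), no filter (0.000204) or library totals (0.0427), and without the aged (8.62e-05) or the young (0.000251) stroke library, with values of -0.76 to -0.99 over the alternatives other than leaving out a library. Interferon-stimulated genes moved beside these: 2 of 17 tested were lower and none higher in the same fit, at a median of -0.98. Their summed level in mature neutrophils was 440 and 647 CPM in aged and young stroke marrow and 1387 and 2795 in aged and young blood, and their part in the Socs3 difference was not tested.

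**Figure D4:**
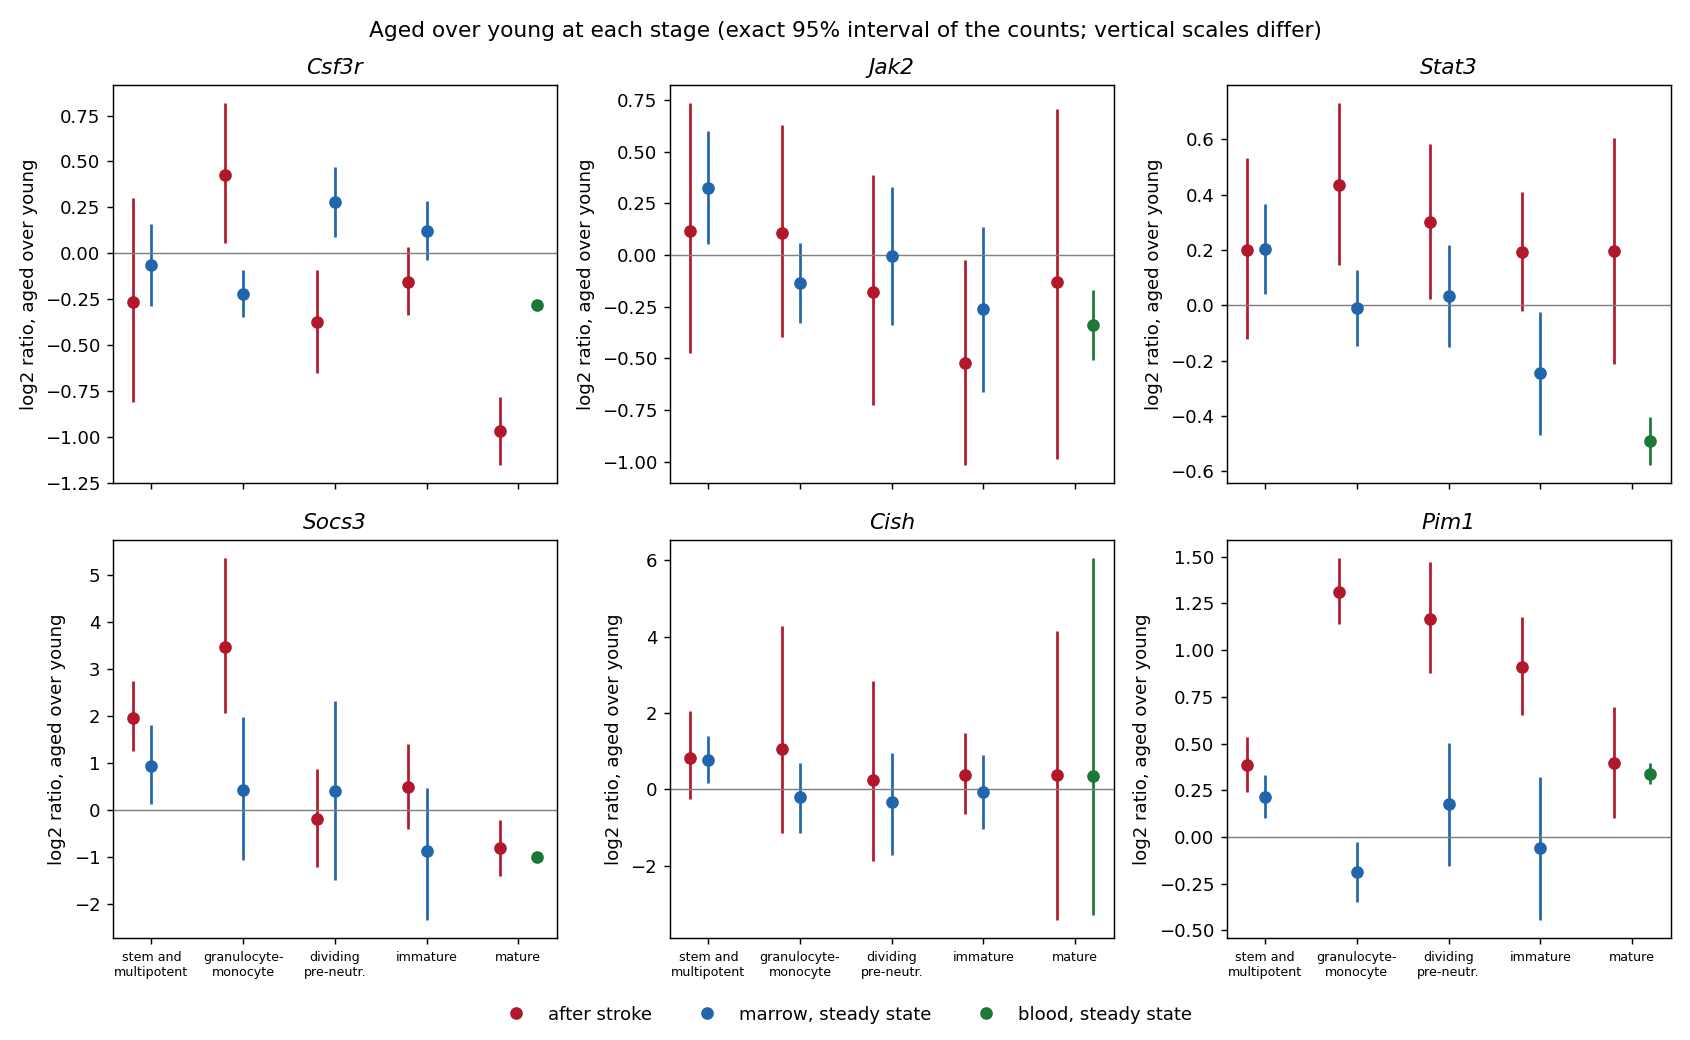
Log2 ratio of aged to young at each stage, after stroke (red), in steady-state marrow (blue) and in blood (green), with the exact 95% interval of the counts and a vertical scale of its own for each gene. Socs3 is above 0 in the 2 progenitor stages after stroke and below 0 in mature neutrophils, at -0.80 in stroke marrow and -1.01 in blood.

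Aged and young blood filled different clusters of mature neutrophils, and 4 of the 6 genes kept 1 direction across all of them. The largest cluster held 1698 aged and 148 young cells and another 84 and 877. Socs3 was lower in aged cells in 6 of 6 clusters, by log2 ratios of -0.69 to -1.28, every interval below 0. It was 207 against 344 CPM (aged, young) in the largest cluster and 281 against 479 in the one made mostly of young cells. In the cluster richest in interferon-stimulated genes, which held 355 aged and 278 young cells, Socs3 was 205 against 413. Csf3r was lower in aged cells in 6 of 6 clusters as well (-0.09 to -0.36, every interval below 0), as was Stat3 (-0.12 to -0.62, 3 intervals below 0). Pim1 was higher in aged cells in 6 of 6 (0.13 to 0.94, 3 intervals above 0). Jak2 had no single direction. These are 2 libraries, and a difference between the libraries and a difference between the ages cannot be told apart.

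**Figure D5:**
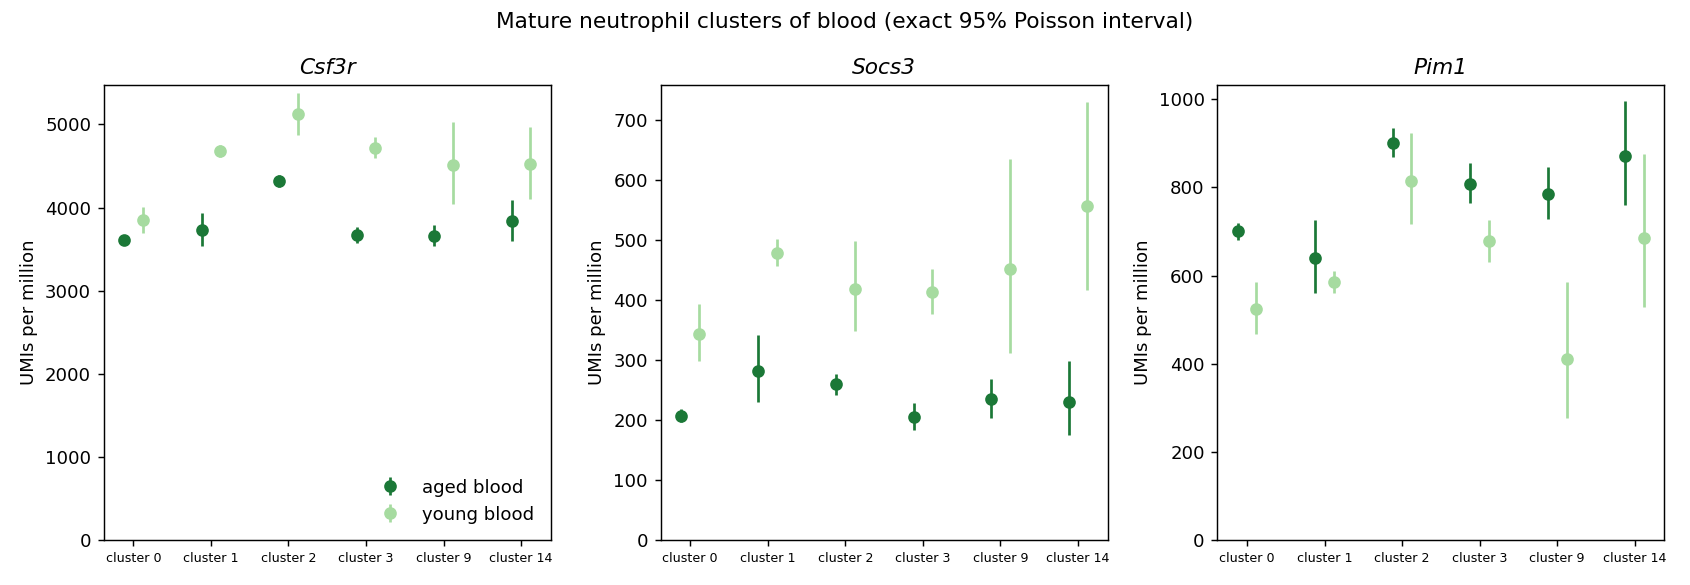
Levels of Csf3r, Socs3 and Pim1, in CPM, in the 6 clusters of mature neutrophils of aged and young blood, with the exact 95% Poisson interval of the count. Socs3 and Csf3r are lower and Pim1 higher in aged than in young cells in every cluster.

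The wider pathway was followed with 70 cytokine receptor, JAK-STAT, feedback and target genes other than the members, 68 of them in the table. After stroke, 17 were higher and 21 lower of 62 tested in progenitors (median log2 difference -0.15), 17 and 6 of 56 in dividing cells (0.12), and 18 and 5 of 53 in immature neutrophils (0.18). Over all genes tested, 22.6% were higher and 23.2% lower in progenitors, 15% and 10.4% in dividing cells, and 13.6% and 10.4% in immature neutrophils, and the counts by role below stand against the same shares. Among receptor chains, 1 was higher and 3 lower of 11 in progenitors, 4 and 0 of 7 in dividing cells and 6 and 0 of 8 in immature neutrophils. Il4ra, the interleukin-4 receptor chain, rose by 1.17 ± 0.21 (adjusted p = 0.000131) in dividing cells. Among kinases the calls were 2 higher and 4 lower of 7, 4 and 1 of 7, and 4 and 1 of 7. Jak3, the kinase of the common gamma chain receptors, rose in dividing (1.51 ± 0.43, adjusted p = 0.01) and immature cells (1.499 ± 0.41, 0.0115), and Fgr, a Src-family kinase of myeloid cells, fell by 1.08 (SE 0.30, 0.0076) in progenitors. Among transcription factors, 3 were higher and 6 lower of 11, 2 and 1 of 11, and 2 and 1 of 11.

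Of the feedback inhibitors other than Socs3 and Cish, 2 were higher and 4 lower of 12 in progenitors, 0 and 2 of 10 in dividing cells and 0 and 1 of 10 in immature neutrophils. Socs2, a STAT5-induced inhibitor, rose by 1.32 ± 0.36 (adjusted p = 0.00615) in progenitors. The target list gave 7 higher and 2 lower of 11, 5 and 1 of 11, and 5 and 2 of 8. Junb, an AP-1 factor, rose by 1.70 ± 0.15 (2.74e-08) in progenitors. Its level in stem and multipotent cells was 114 and 78.4 CPM in aged and young stroke marrow, against 37.1 and 39.0 at steady state. Bcl3, a partner of NF-kappaB, rose by 2.23 ± 0.32 (5.38e-06) in dividing and by 2.00 ± 0.27 (1.23e-05) in immature cells. In immature neutrophils Bcl3 was 24.8 and 11.0 CPM after stroke, against 6.15 and 4.92 at steady state. Ccnd2, cyclin D2, fell by 1.36 (SE 0.34, 0.00401) in dividing and by 2.64 (SE 0.39, 3.7e-05) in immature cells, and Myc fell by 1.59 (SE 0.53, 0.0321) in immature cells. For age, none of 53, 56 and 58 passed in immature, dividing and post-mitotic cells.

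Over the stages, 37 of 61 pathway genes were higher and 13 lower in dividing cells against progenitors (median 0.88), 30 and 9 of 57 in immature against dividing cells (0.40), and 22 and 4 of 48 in mature against immature neutrophils (0.58). All genes gave 34.9% higher and 40.1% lower, 31.6% and 31.2%, and 16.4% and 15.7% at these steps. Fgr was higher by 5.67 in dividing cells against progenitors, and Myc lower, at -4.41. The interleukin-10 and interleukin-6 receptor genes Il10ra and Il6ra were higher by 1.68 and 1.40 in immature against dividing cells, as was Osm, the oncostatin M gene, by 1.36, and Cdkn1a, the cell-cycle inhibitor p21, was lower at -3.29. In mature against immature cells Csf1, the macrophage growth factor gene, was higher at 3.34 and Cebpe, a factor of granule gene expression, lower at -3.09, with Ccnd2 higher at 3.001. Gfi1, a repressor needed for neutrophil formation, had 0 UMIs in mature cells of aged and young stroke marrow (at most 5.56 and 4.32 CPM by the limit of 3 counts), against 9.69 and 11.6 CPM in immature ones. Immediate-early genes were 10 higher and 0 lower of 14 tested at this last step, and interferon-stimulated genes 7 higher and 1 lower of 11. The immediate-early sum in mature neutrophils was 2897 and 3407 CPM in aged and young stroke marrow and 11800 and 13540 in blood, and its part in the mature levels of Socs3 and Pim1 was not tested.

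Across 62 sums of a class and a library, the gene whose level was most like that of Socs3 among 5980 compared was Junb, with a Pearson correlation of 0.854 on log2(CPM + 10), followed by Rnf149 at 0.811 and Sbno2 at 0.772. Pim1 was most like Socs3 itself, at 0.742, then Junb at 0.717 and Hnrnph2 at 0.708. For Csf3r these were Gm16556 (0.905), H2-Q10 (0.904) and Adipor1 (0.899), and for Stat3 they were Zfand3 (0.798), Ythdf3 (0.788) and Stat6 (0.786). For Jak2 they were Ptms (0.790), Nub1 (0.680) and Spag9 (0.677), and for Cish Dok2 (0.687), A630072M18Rik (0.652) and Cd27 (0.640). Sums from the same library share its depth and its free RNA, so these correlations are descriptions without a test.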

How the data were processed

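The authors deposited raw UMI counts, one value for each gene in each cell of the 6 libraries. Per the submitters' processing notes the tools were STAR 2.5.3a, featureCounts 1.6.4 with Subread, Cell Ranger 3.0.2 and UMI-tools, roles not given, on build GRCm38 (mm10). The members, the gene lists and the tests were chosen with earlier results of these data known. A cell was kept if it had 500 UMIs and 200 genes or more, with no more than 10% of UMIs mitochondrial, and cells over a doublet score of 0.25 were removed, between 0.904% and 6.46% of a library. Each context was clustered (scanpy 1.11.5; 2000 variable genes, 30 components, 15 neighbours, Leiden resolution 1) without the members and the pathway genes. Clusters were named from marker lists by a scoring rule set after the cluster tables were seen, and any other cluster stayed unnamed. Counts were summed per library and class, the replicate being the library. edgeR 4.0.16 (R 4.3.3) was fitted by quasi-likelihood with TMM scaling and filterByExpr, and p-values were adjusted by Benjamini-Hochberg over all genes, with a threshold of 0.05. Age and stroke were additive terms, and stages were compared with the library as a block. The scripts were tested on simulated data. Intervals are exact 95% ones, and those and the limit of 3 counts for a count of 0 cover counting error only. Library totals ran between 10208699 and 72743805 UMIs. All members are named, and of the pathway list the genes with the largest called differences at each comparison; some of these are not reported here. Junb and Bcl3 levels, and the blood and stem clusters, were described after their values were seen. Alternatives were DESeq2 (1.42.0), no filter, doublets kept, resolution 0.5, and each library left out. Library totals, single progenitor stages, mature neutrophils alone and leaving out the Hlf-led cluster were added after seeing the data. Csf3r shares 31.3% of the 31-base words at the ends of its transcripts with other genes, so its counts may be split.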

Additional observations from a re-analysis of the deposited data

Results flagged for a closer look

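A set of 3 differences between aged and young mice took opposite directions in the 2 marrow conditions, and the difference between the conditions was not tested, since each is 1 library per age. The log2 ratio of aged to young for Pim1 in granulocyte-monocyte progenitors was 1.31 after stroke and -0.19 at steady state. For Csf3r in granulocyte-monocyte progenitors it was 0.43 after stroke and -0.22 at steady state, and for Csf3r in dividing pre-neutrophils -0.37 after stroke and 0.28 at steady state.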

How the results depend on the processing

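No paired analysis was possible because each group is 1 library, with no numbered replicates to pair across groups; the stage comparisons had the library as a block and the stroke fits had age as a term from the start. The counts of genes called moved by more than 1.5 times as follows. For age in post-mitotic neutrophils, 3 became 113 with no filter, 13 with library totals, 11 with doublets kept, 14 in mature neutrophils alone, and 0 to 168 with 1 library left out. For age in immature neutrophils, 7 became 0 with DESeq2 size factors, 1 with DESeq2's test, 12 with no filter, 1 with doublets kept and 4 at resolution 0.5. For age in dividing cells, 20 became 2 with DESeq2's test, 49 with no filter, 8 with library totals, 75 with doublets kept and 75 at resolution 0.5. For age in progenitors, 188 became 33 with DESeq2's test, 377 with no filter, 365 with library totals, 98 with doublets kept, 17 at resolution 0.5, 6 in granulocyte-monocyte progenitors alone and 58 without the Hlf-led cluster. For stroke, DESeq2's test called 486 against 2096 in immature, 644 against 2464 in dividing and 3237 against 6933 in progenitor cells, while immature cells gave 3182 with library totals and 4037 with doublets kept, and stem and multipotent cells alone 3117. For mature against immature cells, 2241 became 793 with DESeq2's test and 1363 at resolution 0.5. Reversed values were all of members that passed no test in the fit described, apart from 2. Jak2 after stroke was 0.022 in stem and multipotent cells alone, and Pim1 of dividing cells was 0.39 against granulocyte-monocyte progenitors. For age they were Stat3 in post-mitotic cells (-0.37 to 0.0046 with 1 library left out, above 0 at 0.0044 and 0.0046 without aged or young blood), Cish there (-0.0186 to 0.51, below 0 at -0.0184 and -0.0186 without aged or young stroke marrow), Csf3r in immature cells (-0.0119 with library totals, -0.0169 with doublets kept, -0.0976 at resolution 0.5), Stat3 there (-0.0238 with library totals) and Socs3 there (-0.11 with DESeq2's test, -0.0983 at resolution 0.5). Csf3r in dividing cells was -0.0045 with DESeq2's test and at resolution 0.5, -0.0029 with library totals and -0.014 with doublets kept, and Socs3 there -0.0080 with library totals. Csf3r and Jak2 in progenitors were 0.038 and -0.016 at resolution 0.5, and 0.0025 and -0.062 in granulocyte-monocyte progenitors alone. For stroke they were Csf3r in immature cells (0.0982 with doublets kept, 0.18 at resolution 0.5), Cish there (-0.13 with library totals), Csf3r and Stat3 in dividing cells (-0.15 and -0.11 with library totals), Stat3 in progenitors (-0.21 with library totals) and Cish in granulocyte-monocyte progenitors (-0.051). Against progenitors, Socs3 of dividing cells was 0.12 with DESeq2's test, 1.20 against granulocyte-monocyte progenitors alone, 0.048 without the Hlf-led cluster, and between -0.56 and 0.80 with 1 library left out, above 0 without the aged steady-state (0.031) or aged stroke library, and Cish was -0.69 with library totals, -1.23 against stem and multipotent cells alone and between -0.14 and 0.48 with 1 library left out, below 0 without the young steady-state library. The causes were not tested. Stat3 of immature against dividing cells was lost with library totals (adjusted p = 0.0547), and Stat3 of mature against immature cells was also lost with no filter (adjusted p = 0.0660). In the marrow fits for age and stroke, leaving out 1 library leaves values with no test. Depth limits Cish in mature and Socs3 in granulocyte-monocyte cells, at 10 or fewer UMIs in several libraries.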
